A study of Mus musculus with 7 samples.

Results

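Liver RNA of SunTag-dCas9 knock-in mice was compared with that of wild-type mice, gene by gene. Both groups were C57BL/6: 2 libraries of wild-type animals (WT) and 2 of the knock-in (SunTag), each from total RNA of liver. The comparison asks what differs little between livers with and without the dCas9 system and what moves. Values were deposited as FPKM, fragments scaled by the length of the transcript and by the mapped fragments of the library, in 37468 rows per library. A gene was included if its value had the status OK in all 4 libraries, if its span on the genome was at least 300 bp, and if it reached 1 FPKM in at least 1 of the 4 libraries. These conditions left 13808 of the 37468 rows: 340 rows went for status, 6005 for span and 17315 for a low value, of which 7878 were listed at 0 in all 4 libraries. Just inside the limit of 1 FPKM were 271 genes with a highest value of 1 to 1.1, and just outside it 280 rows with a highest value of 0.9 to 1. Within 100 bp above the limit on span were 331 genes, and within 100 bp below it 291 rows that reached 1 FPKM. Predicted genes, clones and small RNAs made up 3269 of the 13808.

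dCas9 is a Cas9 protein whose cutting activity has been removed by mutation, so that with a guide RNA it binds a matching DNA site and leaves it intact. SunTag is a chain of short peptide epitopes, fused here to dCas9 by name, that binds several copies of an antibody fragment carrying an activator or a fluorescent protein. Without a guide RNA the complex has no chosen target. The labels gave the genotype as SunTag and no guide, insertion site, promoter, sex or age for these 4 libraries. No row was named for dCas9, SunTag or a fluorescent protein, so the knock-in's own transcript was not analysed here, and no value here checks the genotype.

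The 4 libraries were female by their transcripts. Xist, the RNA that coats the inactive X chromosome, was at 82.2 and 66.1 FPKM in WT, against 56.9 and 76.1 in SunTag, and the Y-linked helicase Ddx3y was listed at 0 in 3 libraries and at 0.0765 in WT replicate 1. The labelled tissue fitted its markers: all 34 listed genes of hepatocyte secreted proteins passed the filter, and Alb (albumin) was the most abundant gene. Read counts were not given, so the depth behind each value is unknown. The 2 control libraries of the series' other experiment (Myod1_control, also from SunTag-dCas9 mice) entered the fit only to estimate the spread between libraries. They were male by the same transcripts, with Ddx3y at 8.26 and 6.97 FPKM and Xist at 0.324 and 0.0322, so they differ from the 4 compared libraries in sex as well as in experiment. The labels do not say whether replicates were separate animals; a p-value here is therefore set against the spread of these libraries alone, and that spread may be technical.

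One library stood apart. SunTag replicate 1 differed by at least 2-fold in FPKM + 1 from all 3 other libraries in 139 genes, 111 above and 28 below, whereas the same count was 24 for WT replicate 1, 25 for WT replicate 2 and 24 for SunTag replicate 2. The median absolute log2 difference between SunTag replicates 1 and 2 was 0.257, the highest of the 6 pairs. It was 0.158 between the WT replicates, and 0.146 and 0.140 between SunTag replicate 2 and WT replicates 1 and 2. SunTag replicate 2 was thus as close to each WT library as these were to each other. Values of both SunTag libraries are therefore given for most results below.

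**Figure D1:**
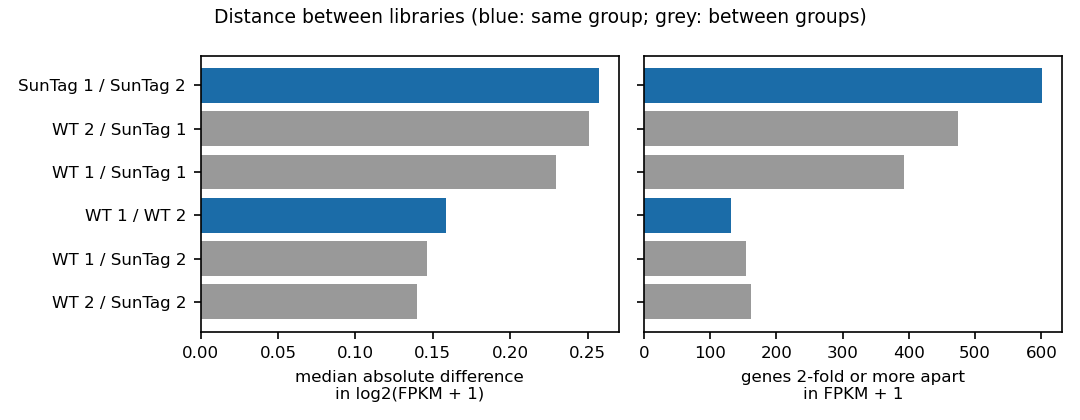
Distance between each pair of the 4 liver libraries over 13808 genes, as the median absolute difference in log2(FPKM + 1) (left) and as the number of genes at least 2-fold apart in FPKM + 1 (right); blue bars join libraries of the same group and grey bars join WT with SunTag. The 3 pairs with SunTag replicate 1 have the longest bars, up to 601 genes, and the other 3 pairs lie between 132 and 161.

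Most genes differed little between the groups. The difference of group means on the log2(FPKM + 1) scale, SunTag minus WT, had a median of 0.02 and an interquartile range of -0.11 to 0.15 over the 13808 genes, and 7337 of them (53.1%) lay above 0. The 95% confidence interval of the difference lay wholly within 2-fold in FPKM + 1 either way for 12263 genes (88.8%) and within 1.5-fold for 6331 (45.9%). For these genes a change of that size is outside the interval, and for the others it is not. The share within 2-fold was 75.5% for genes with a mean under 1 FPKM, 88.2% at 1 to 2, 90.3% at 2 to 10, 90.5% at 10 to 100 and 84.8% at 100 FPKM or more.

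By limma's test with Benjamini-Hochberg adjustment over all 13808 genes, 0 genes (0%) were higher in SunTag and 5 (0.0362%) were lower, at a threshold of 0.05. The 5 were Myl2, Mb, Tnnt2, Myl3 and Myh6, which encode contractile or oxygen-binding proteins of heart muscle. Among genes above WT the lowest limma adjusted p was 0.795, and at an unadjusted p under 0.05 limma gave 137 genes higher and 145 lower, 2.04% of all. Both SunTag libraries lay above both WT libraries in 1767 genes (12.8%) and below both in 1837 (13.3%). With a gap of at least 1.5-fold in FPKM + 1 between the nearest libraries these counts were 23 (0.167%) and 29 (0.21%), and with a gap of at least 2-fold they were 1 (0.00724%) and 17 (0.123%).

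**Figure D2:**
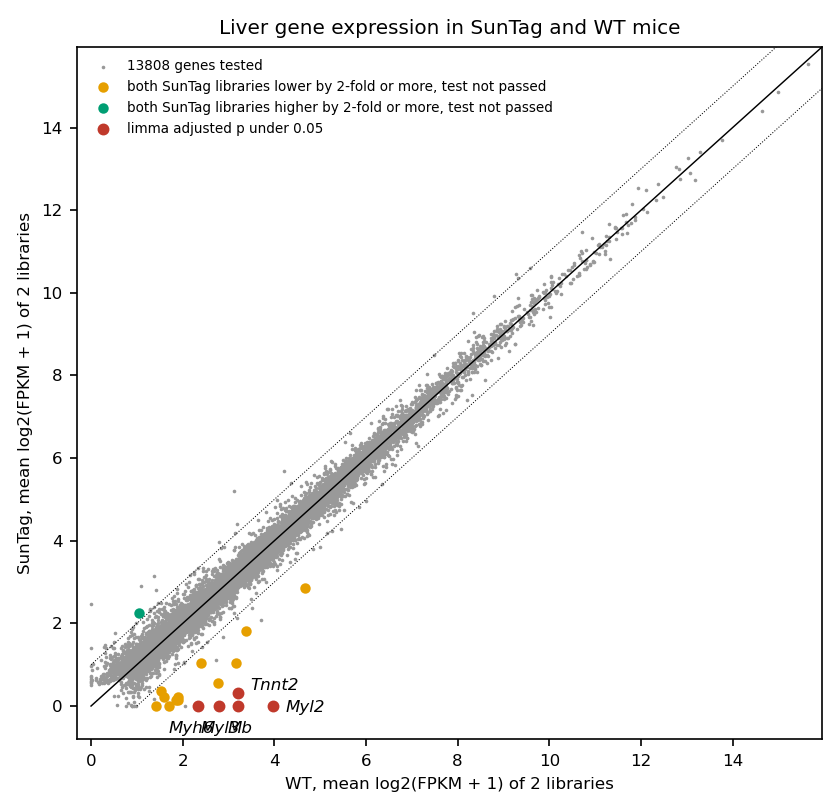
Mean log2(FPKM + 1) of the 2 SunTag libraries against that of the 2 WT libraries for 13808 genes; the solid line marks equal values and the dotted lines a 2-fold difference. The genes with an adjusted p under 0.05 are the 5 red points at the lower left, and the 1 gene with both SunTag libraries at least 2-fold above both WT libraries (Fmn1) is green.

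The 5 genes that were lower in SunTag belong to the sarcomere, the contractile unit of striated muscle, with 1 exception. Myl2 and Myl3 encode the ventricular regulatory and essential light chains of myosin, Myh6 the alpha myosin heavy chain of heart, and Tnnt2 the cardiac troponin T that ties the calcium switch to the thin filament. Mb encodes myoglobin, the oxygen store of heart and oxidative skeletal muscle, and is the exception. None of them is a hepatocyte gene. On mm9, as the tables give them, Myl2 (ENSMUSG00000013936) lies at chr5:122550960-122563481, Mb (ENSMUSG00000018893) at chr15:76845919-76881100, Tnnt2 (ENSMUSG00000026414) at chr1:137737452-137748837, Myl3 (ENSMUSG00000059741) at chr9:110666150-110672308 and Myh6 (ENSMUSG00000040752) at chr14:55560758-55585764. They stand on 5 chromosomes.

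The sequences upstream of these genes are shown as a description. Whether these sequences bear on the difference between the groups was not tested. Promoter windows of RefSeq (GRCm38.p6, another build than that of the tables) were matched by symbol for 4 of the 5, and the 250 bases before the start of transcription are printed 5′ to 3′ on the gene's strand, with the matches to the motifs named after them in capitals. They are Mb at chr15:77022728-77022977 (minus strand), Tnnt2 at chr1:135836084-135836333 (plus), Myl3 at chr9:110763428-110763677 (plus) and Myh6 at chr14:54966608-54966857 (minus).
Mb: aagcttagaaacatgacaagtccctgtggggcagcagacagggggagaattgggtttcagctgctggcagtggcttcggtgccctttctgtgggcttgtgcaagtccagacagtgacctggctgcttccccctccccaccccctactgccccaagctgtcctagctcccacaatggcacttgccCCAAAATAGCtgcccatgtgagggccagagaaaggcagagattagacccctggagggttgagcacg
Tnnt2: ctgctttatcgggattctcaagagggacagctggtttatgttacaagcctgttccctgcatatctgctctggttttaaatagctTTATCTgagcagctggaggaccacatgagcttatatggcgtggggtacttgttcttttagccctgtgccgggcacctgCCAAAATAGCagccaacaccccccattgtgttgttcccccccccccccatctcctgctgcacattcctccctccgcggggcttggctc
Myl3: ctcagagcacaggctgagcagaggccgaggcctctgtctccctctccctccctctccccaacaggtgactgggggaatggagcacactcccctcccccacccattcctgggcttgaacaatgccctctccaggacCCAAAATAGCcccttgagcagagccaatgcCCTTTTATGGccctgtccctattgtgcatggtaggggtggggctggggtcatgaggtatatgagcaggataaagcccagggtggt
Myh6: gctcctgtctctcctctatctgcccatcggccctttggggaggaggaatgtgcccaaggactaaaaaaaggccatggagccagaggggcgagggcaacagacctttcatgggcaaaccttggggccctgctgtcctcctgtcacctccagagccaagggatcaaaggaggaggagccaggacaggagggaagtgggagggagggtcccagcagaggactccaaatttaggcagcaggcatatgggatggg
Both strands were searched for 5 motifs. The longest stretch held by at least 3 of the 4 windows was CCAAAATAGC, looked for after the sequences had been seen. It stood in the windows of Mb (66 to 57 bases before the start), Tnnt2 (88 to 79) and Myl3 (115 to 106) and in 0.0791% of 32851 promoter windows of the same length. Its presence in at least 3 of the 4 was fixed by that choice, so nothing is read from the contrast. The CArG box, bound by serum response factor, occurred in Myl3 (CCTTTTATGG, 85 to 76 bases before the start) and in 1.47% of all windows. The GATA motif AGATAA occurred in Tnnt2, read on the other strand as TTATCT (166 to 161 bases before the start), and in 9.99% of all windows. The TATA box as TATAAA (12.4% of all windows) and the MEF2 motif, spelled CTA, any 4 bases, TAG (3.20%), occurred in 0 of the 4. No match overlapped another. These are matches of letters and not measured binding.

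Myl2 was at 14.96 and 14.6 FPKM in the WT libraries and was listed at 0 in both SunTag libraries. Its log2 difference was -3.98 (SE 0.16, 95% interval -4.36 to -3.61, limma adjusted p = 0.000451). Mb was at 7.85 and 8.72 FPKM in WT and at 0 in both SunTag libraries (log2 difference -3.21, SE 0.17, limma adjusted p = 0.00152). For both genes the WT replicates were close together and far from every SunTag value. Tnnt2 was at 7.60 and 8.79 FPKM in WT, against 0.285 and 0.224 in SunTag (log2 difference -2.87, SE 0.17, limma adjusted p = 0.00243), and its mean FPKM was 32.2-fold lower. Myl3 was at 5.20 and 6.76 FPKM against 0 and 0 (-2.79, SE 0.19, limma adjusted p = 0.00443). Myh6 was at 3.81 and 4.31 FPKM against 0 and 0 (-2.34, SE 0.18, limma adjusted p = 0.00751). A log2 difference against values listed at 0 depends on the pseudocount of 1 and is no fold change. In the 2 Myod1_control libraries, of male mice, all 5 genes were listed at 0. Some genes of non-hepatocyte liver cells were also far lower there. Clec4f, a Kupffer cell marker, was at 11.4 and 13.3 FPKM there, against 92.4 and 126 in WT and 148 and 103 in SunTag. Others were not, such as Mpeg1 (13.7 and 8.68 FPKM) and Col1a1 (4.33 and 2.83). The zeros there are therefore not read as a second SunTag result for heart genes, and their cause was not tested. Without WT replicate 1 no gene passed, and Myl2 had the lowest limma adjusted p of the 5, at 0.0587. Without WT replicate 2 only Myl2 among the 5 passed, and with either SunTag library left out all 5 passed.

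The spans of 3 of these genes overlap another row, so reads could have been shared; whether strand was used in counting is not given in the labels. Myl2 overlaps Ccdc63, at 1.13 FPKM in WT replicate 1, Mb overlaps Apol6 and Myh6 overlaps the microRNA row Mir208a. Myh6 and Myh7, its beta counterpart, are near-identical copies, so their separate values are uncertain. Myh7 was at 0.691 and 1.06 FPKM in WT, against 0.0166 and 0 in SunTag.

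To describe heart muscle transcripts as a whole, 49 genes known from heart were listed after these results had been seen, so the list is no independent evidence of its direction. All 49 had a row and 25 passed the filter. A gene that passed only through the WT libraries had to differ, so the counts are given over all 49. Both SunTag libraries lay below both WT libraries in 38 of the 49, above both in 3, and the groups overlapped in 8, beside 13.3% below and 12.8% above among all tested genes. Since the list was drawn up with the called genes known, nothing is read from that contrast. In both SunTag libraries 12 genes were listed at 0, in both WT libraries 0, and in both Myod1_control libraries 16. The summed FPKM of the 49 was 166 and 164 in WT and 96.2 and 78.5 in SunTag. Of the 17 genes of the whole comparison with a gap of 2-fold or more below WT, 12 were in this list and 3 were predicted genes.

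The contractile genes made up most of this difference. Of 19 listed, 18 lay below WT in both SunTag libraries, and their summed FPKM was 77.1 and 75.9 in WT against 19.2 and 20.8 in SunTag. Tnni3, cardiac troponin I, was at 8.83 and 7.28 FPKM in WT, against 1.60 and 0.652 in SunTag (limma adjusted p = 0.124). Actc1, cardiac alpha actin, was at 2.18 and 3.08 FPKM against 0.0193 and 0.199 (limma adjusted p = 0.234). Tcap, which anchors titin in the Z-disc, was at 1.26 and 2.14 FPKM against 0 and 0 (limma adjusted p = 0.336). In these 3 genes too the groups did not overlap. Csrp3, a Z-disc protein, was the most abundant of the 19, at 26.6 and 20.2 FPKM in WT, against 14.5 and 17.5 in SunTag. It was at 17.4 and 14.6 FPKM in the Myod1_control libraries, in which 7 of the 19 contractile genes were listed at 0 in both. Des (desmin), which stellate cells of the liver also make, was the 1 contractile gene whose groups overlapped, at 2.47 and 2.22 FPKM in WT, against 2.44 and 1.62 in SunTag.

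Of 8 listed genes of oxygen and energy supply 7 lay below WT in both SunTag libraries and 1 overlapped, and of 7 of calcium handling 5 lay below and 2 overlapped. Cox6a2, a heart and muscle form of a cytochrome oxidase subunit, was at 2.002 and 2.04 FPKM in WT, against 0.269 and 0.0603 in SunTag (limma adjusted p = 0.232). Fabp3, the heart fatty acid binding protein, was at 2.14 and 3.42 FPKM against 0.0791 and 0.133 (limma adjusted p = 0.336). Cox8b, another muscle form of a cytochrome oxidase subunit, was at 2.11 and 3.46 FPKM against 0 and 0.342. Pln, phospholamban, which restrains the calcium pump of the sarcoplasmic reticulum, was at 1.88 and 1.93 FPKM against 0.237 and 0.351 (limma adjusted p = 0.336). The groups did not overlap in any of these 4. They overlapped in Cox7a1, a heart and muscle form of a further oxidase subunit, at 11.8 and 14.2 FPKM in WT, against 19.6 and 11.3 in SunTag. They also overlapped in Slc8a1, a sodium-calcium exchanger, at 4.03 and 0.159 FPKM against 0.248 and 0.339, where WT replicate 1 alone was high. The pump itself, Atp2a2, which most tissues express, was at 35.4 and 29.6 FPKM in WT, against 36.5 and 26.8 in SunTag, so its groups overlapped.

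Atrial genes and cardiac transcription factors did not follow the ventricular genes throughout. Of the 5 atrial genes, 3 lay below WT, 1 above and 1 overlapped. Myl7, the atrial regulatory light chain, was at 1.28 and 0.753 FPKM in WT, against 4.17 and 0.567 in SunTag, so that SunTag replicate 1 was the highest of the 4. Nppa, the atrial natriuretic peptide, was at 0.276 and 0.762 FPKM in WT and at 0 in both SunTag libraries. Nkx2-5, a transcription factor of the heart, was at 0.0790 and 0.0402 FPKM against 0 and 0. Gata4 and Hand2 are also expressed in liver, and they were at 5.57 and 7.02 against 5.04 and 7.71 FPKM and at 3.996 and 4.24 against 4.59 and 4.27 FPKM.

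**Figure D3:**
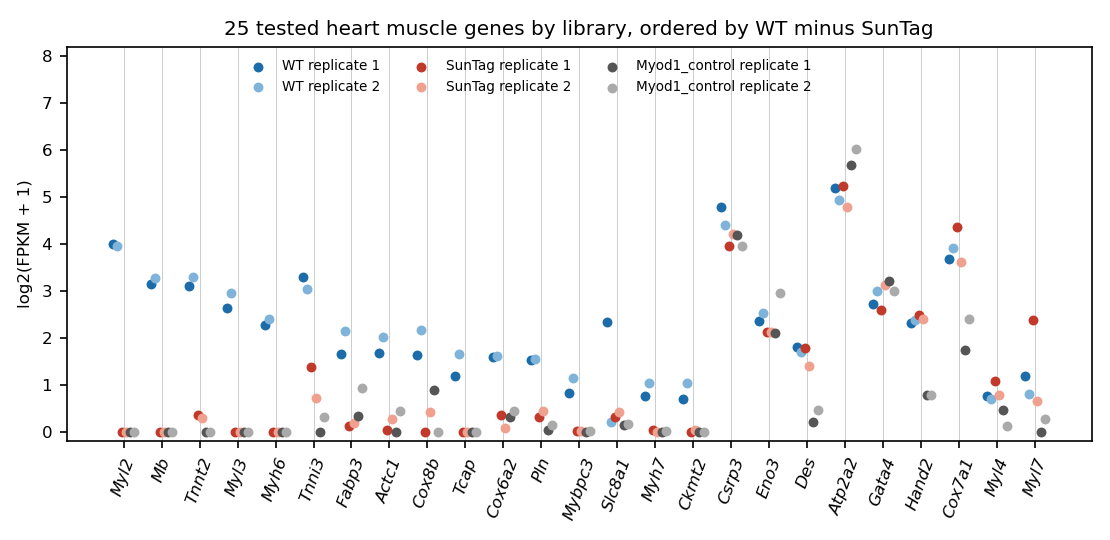
log2(FPKM + 1) of the 25 heart muscle genes that passed the filter, in the 2 WT, 2 SunTag and 2 Myod1_control libraries, 1 point per library, ordered by the difference between WT and SunTag. For the first 5 genes, those with an adjusted p under 0.05, the WT points lie far above all others, and Csrp3, Eno3, Atp2a2, Gata4, Hand2 and Cox7a1 are expressed in all 6 libraries.

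Few skeletal muscle markers reached 1 FPKM in any of the 4 libraries. Of 20 listed genes with a row, only Mb, Mylpf and Des passed the filter, and Mb, shared with heart, was the 1 that was called; Myod1, Myog, Myf6, Myh2, Myh4, Pvalb and Tnnc2 were listed at 0 in all 4 libraries. Mylpf, a fast skeletal muscle light chain, was at 4.09 and 1.77 FPKM in WT, against 5.77 and 2.70 in SunTag. Ckm, which is in this list and in the heart list, did not pass the filter. It was at 0.560 and 0.811 FPKM in WT, against 0 and 0.0227 in SunTag. How the heart transcripts came to be in the WT libraries was not tested. Genotype cannot be told apart here from other differences between the WT and SunTag samples, such as their dissection or preparation. In such bulk samples fewer cells of a type and less RNA per cell cannot be told apart either.

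Outside the heart list, 2 named genes lay at least 2-fold below WT in both SunTag libraries. Ptgds, which makes prostaglandin D2 and carries lipophilic molecules, was at 19.5 and 30.2 FPKM in WT, against 5.34 and 7.34 in SunTag (log2 difference -1.80, SE 0.24, limma adjusted p = 0.223). Apbb2, an adaptor protein that binds the amyloid precursor, was at 8.14 and 10.8 FPKM against 2.47 and 2.55 (-1.56, SE 0.40, limma adjusted p = 1). Neither passed the test. Among the genes with a gap of 1.5-fold or more was Npr2, a natriuretic peptide receptor, at 27.4 and 28.3 FPKM against 9.48 and 17.6. Lmbr1 was at 50.7 and 36.5 FPKM against 17.3 and 19.5. In both genes, as in Ptgds, every SunTag value was under every WT value, as the gap by which they were chosen requires.

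No gene passed the test in the other direction. The only gene with both SunTag libraries at least 2-fold above WT was Fmn1, which encodes the actin assembly factor formin 1, at 1.16 and 0.989 FPKM in WT, against 3.42 and 4.18 in SunTag (log2 difference 1.21, 95% interval 0.03 to 2.38, limma adjusted p = 1). In the Myod1_control libraries, whose spread enters this interval, Fmn1 was at 6.41 and 1.17 FPKM, farther apart than in WT or SunTag. Among the 23 genes with a gap of at least 1.5-fold, 3 were predicted genes or small RNAs and 4 were globin genes.

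Globin genes and Alas2, which starts heme synthesis in red cell precursors, were higher in FPKM in both SunTag libraries and did not pass. Hba-a1 was at 746 and 771 FPKM in WT, against 1927 and 1233 in SunTag. Hbb-b1 was at 638 and 596 FPKM against 1852 and 1059.9. Alas2 was at 7.42 and 8.27 FPKM against 21.7 and 13.8. In each the groups did not overlap and SunTag replicate 1 was the higher of the pair. The mean differences of Hba-a1, Hba-a2, Hbb-b1 and Hbb-b2 lay between 1.02 and 1.19 on the log2 scale, with a limma adjusted p of 1 for each. The copies of each globin chain are near-identical, so their separate values are uncertain. Of 13 tested erythroid and globin genes, 7 lay above WT in both SunTag libraries and 0 below, against 12.8% and 13.3% of all genes, and the median difference was 0.69 for SunTag replicate 1 and 0.21 for replicate 2. The summed FPKM of the list was 2490 and 2468 in WT and 6520 and 4058 in SunTag. Reticulocytes in blood carry these RNAs, and the part of blood left in the tissue was not tested. The Myod1_control libraries did not share the globin levels, with Hba-a1 at 0.792 and 1.25 FPKM and Hbb-b1 at 0.638 and 0, whereas Alas2 was at 44.1 and 38.2 there. Gata1, the transcription factor of red cell precursors, was at 0.123 and 0.0562 FPKM in WT, against 0.231 and 0.0162 in SunTag.

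Matrix and stellate cell genes formed another group above WT. Of 21 tested, 10 lay above WT in both SunTag libraries (12.8% of all genes did), 1 below (13.3%) and 0 passed the test (0.0362% either way), with a median of 0.64 for SunTag replicate 1 and 0.11 for replicate 2. Col1a1, the main chain of type I collagen, was at 1.81 and 2.06 FPKM in WT, against 4.84 and 3.37 in SunTag. Lum, the matrix proteoglycan lumican, was at 2.51 and 2.58 FPKM against 6.53 and 3.46. Lrat, which stores retinol as ester in quiescent stellate cells, was at 2.54 and 2.18 FPKM against 3.89 and 2.96. Postn (periostin), a matrix protein outside the list that was reached by the 1.5-fold gap, was at 3.65 and 4.53 FPKM against 9.08 and 9.15. In all 4 genes the groups did not overlap, and the SunTag replicates were closest together in Postn. In the Myod1_control libraries Postn was at 1.70 and 0.61 FPKM and Lum at 0.391 and 0.448, under the WT values, and Col1a1 at 4.33 and 2.83, above them.

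Further single genes lay above WT in both SunTag libraries. Cd36, a fatty acid translocase, was at 6.09 and 5.87 FPKM in WT, against 17.2 and 12.6 in SunTag (log2 difference 1.17, SE 0.25, limma adjusted p = 1). Mt1, the metal-binding metallothionein 1, was at 599.7 and 323 FPKM against 956 and 994. Cklf, a chemokine-like factor, was at 1.20 and 1.20 FPKM against 3.10 and 3.06. Dok2 and Lcp2, adaptor proteins of blood cell signalling, were at 1.59 and 2.06 against 4.32 and 3.85 FPKM and at 0.861 and 1.12 against 3.04 and 3.03 FPKM. Tprn was at 2.91 and 1.93 FPKM against 5.25 and 5.01. The SunTag replicates were close together in Mt1, Cklf, Lcp2 and Tprn, and SunTag replicate 1 was well above replicate 2 in Cd36. In the Myod1_control libraries Mt1 was at 6.53 and 11.9 FPKM and Cklf at 0.354 and 0.705, under every WT value.

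**Figure D4:**
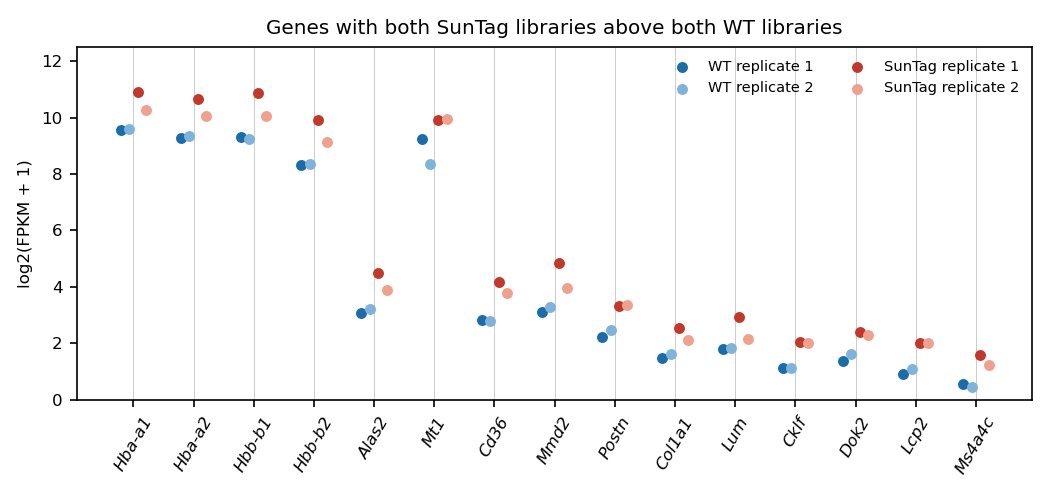
log2(FPKM + 1) by library for 15 genes in which both SunTag libraries lie above both WT libraries, 1 point per library. In the globin genes, Alas2, Mmd2 and Lum, SunTag replicate 1 lies above replicate 2, whereas in Postn, Cklf, Lcp2 and Mt1 the SunTag points are close together; 0 of the 15 passed the test.

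Transcripts of hepatocyte secreted proteins differed little between the groups. Alb was at 48893 and 54092 FPKM in WT, against 46476 and 48271 in SunTag (log2 difference -0.12, 95% interval -0.64 to 0.41). Of the 34 genes of secreted proteins the interval lay inside 2-fold for 31, a share near the 88.8% of all genes, and 0 passed the test. The median difference was -0.08, at -0.10 for SunTag replicate 1 and -0.06 for replicate 2. Of the 34, 28 lay below 0, whereas 53.1% of all genes lay above 0. In both SunTag libraries 7 lay below WT (13.3% of all genes did) and 1 above (12.8%). Trf (transferrin) was at 13208 and 14957 FPKM against 14586 and 12290, and Apoe (apolipoprotein E) at 29087 and 36912 against 26045 and 34325. The 3 fibrinogen chains were Fga at 2272 and 2507 against 2043 and 1890.4 FPKM, Fgb at 2880.1 and 2695 against 2892 and 2242, and Fgg at 2466 and 2590 against 2895 and 2068. Fga lay lower in both SunTag libraries and the other two overlapped with WT. The exceptions in interval width were Apoa1, Hpx and Serpina3k, in which libraries of the same group differed most. Serpina3k was at 5764 and 3482 FPKM in WT, against 6961 and 2283 in SunTag.

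Transcription factors that set hepatocyte identity had a median of -0.05 and 0 calls. Of 24 tested, 19 had an interval inside 2-fold (88.8% of all genes did). In both SunTag libraries 5 lay below WT (13.3% of all genes did) and 1 above (12.8%). Hnf4a was at 160 and 153 FPKM in WT, against 138 and 146 in SunTag, and Prox1 at 12.0 and 12.2 against 11.7 and 13.6. Nr1i3, the xenobiotic sensor CAR, was at 81.5 and 108 FPKM against 34.5 and 93.8, so that 1 library, SunTag replicate 1, was low. Foxa2 had the same order, at 21.2 and 22.9 FPKM against 9.36 and 25.2.

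Several enzymes of the pericentral zone, the hepatocytes around the central vein, were low in SunTag replicate 1 and not in replicate 2. Cyp2e1, which oxidises ethanol, was at 2692 and 2444 FPKM in WT, against 1317 and 2501 in SunTag. Glul, glutamine synthetase, was at 406 and 363 FPKM against 156 and 356. Cyp2c29 was at 523 and 586 FPKM against 232 and 630. Over 40 genes of cytochrome P450 and xenobiotic metabolism the median difference was -0.55 for SunTag replicate 1 and 0.06 for replicate 2, and 0 passed the test. The interval lay inside 2-fold for 21 of the 40, beside 88.8% of all genes. Cyp3a16 and Cyp3a44 lay below WT in both SunTag libraries, at 80.4 and 48.9 against 23.6 and 38.9 FPKM and at 175 and 110 against 59.7 and 100 FPKM, and are copies of 1 gene family that can share reads.

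Other metabolic groups held 0 calls. The median difference was -0.04 over 30 tested PPAR alpha targets and other genes that oxidise fatty acids (-0.17 for SunTag replicate 1 and 0.08 for replicate 2) and -0.16 over 20 of bile acid synthesis and transport (-0.24 and -0.04). It was 0.05 over 23 of the urea cycle and amino acid catabolism (-0.02 and 0.00), 0.03 over 19 of lipogenesis and -0.03 over 21 of sterol synthesis. For lipogenesis and sterol synthesis the SunTag libraries stood on opposite sides of WT, at -0.24 and 0.33 and at -0.16 and 0.28. Lbp and Il6ra, genes of the acute phase response, lay below WT in both SunTag libraries, Lbp (which binds bacterial lipopolysaccharide) at 87.6 and 83.8 against 49.5 and 59.6 FPKM, and Il6ra (the interleukin 6 receptor) at 12.2 and 10.7 against 7.62 and 6.503. Their list of 27 had a median of 0.00 and 0 calls. In both SunTag libraries 6 of the 27 lay below WT (13.3% of all genes did) and 3 above (12.8%).

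**Figure D5:**
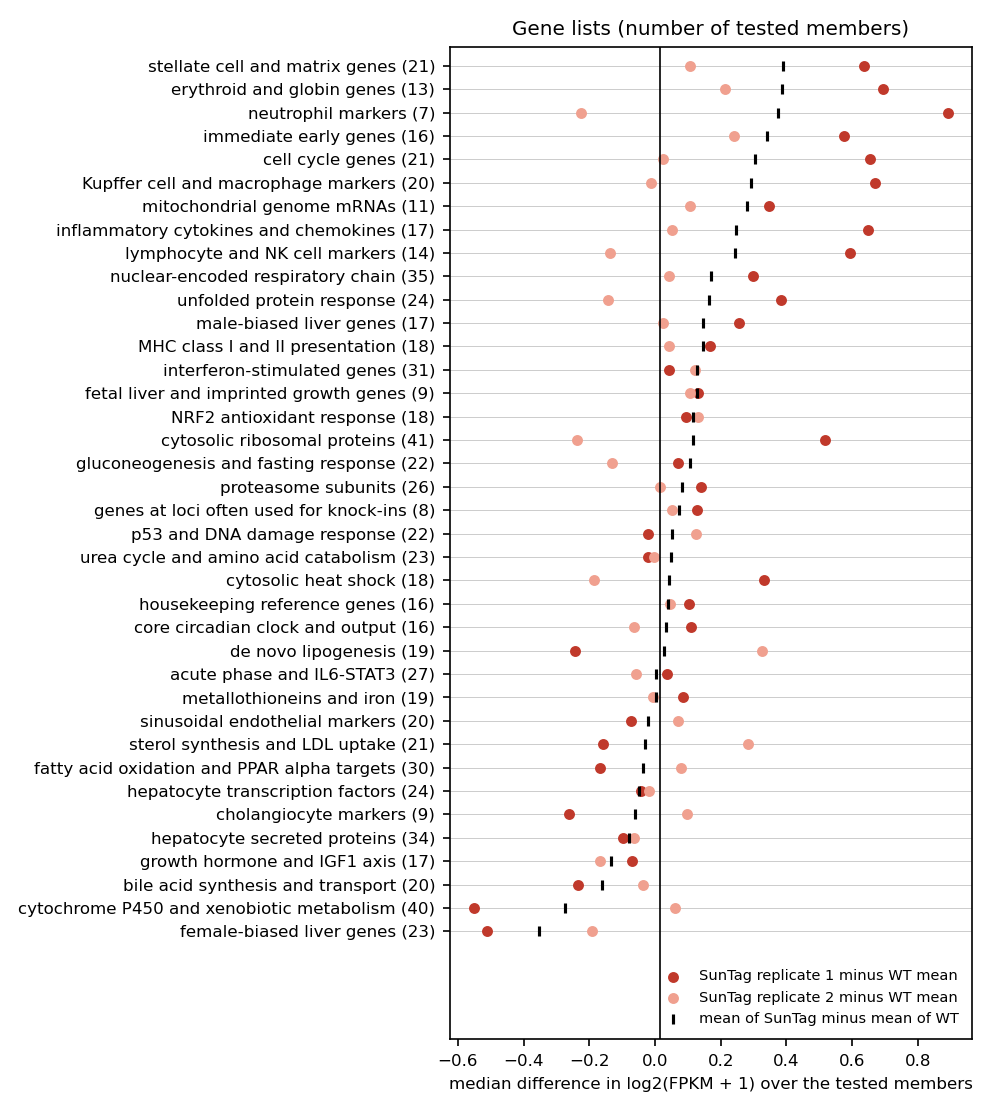
Median difference in log2(FPKM + 1) from the WT mean over the tested members of each list with at least 5 of them, for SunTag replicate 1 (dark red), SunTag replicate 2 (light red) and the mean of the SunTag libraries (black tick); the vertical line is the median of all 13808 genes, 0.02. In 30 of the 38 lists replicate 1 lies farther from the line than replicate 2; the heart muscle list, drawn up with the called genes known, is left out.

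Lists of responses to a foreign protein or to DNA damage held 0 calls. With 0.0362% of all genes called, nothing is read from that. Of 17 tested inflammatory cytokines and chemokines, 5 lay above WT in both SunTag libraries (12.8% of all genes did) and 0 below (13.3%). Their medians were 0.65 for SunTag replicate 1 and 0.05 for replicate 2, with 8 intervals inside 2-fold. Of 31 tested interferon-stimulated genes, 28 had an interval inside 2-fold, a share near the 88.8% of all genes. In both SunTag libraries 8 of them lay above WT (12.8% of all genes did) and 2 below (13.3%), with medians of 0.04 for SunTag replicate 1 and 0.12 for replicate 2. Isg15, a ubiquitin-like interferon target, was at 16.7 and 19.9 FPKM in WT, against 18.5 and 22.6 in SunTag. Of 22 tested genes of the p53 and DNA damage response, 19 had an interval inside 2-fold and the median was 0.05, at -0.02 and 0.12 for the SunTag libraries. Mdm2, the ubiquitin ligase that p53 induces, was at 9.48 and 8.50 FPKM against 8.55 and 9.88, whereas Cdkn1a, the cell cycle inhibitor p21, was at 15.2 and 29.3 against 31.3 and 12.3. The 24 tested genes of the unfolded protein response had medians of 0.38 for SunTag replicate 1 and -0.14 for replicate 2, with 16 intervals inside 2-fold. The 18 genes of cytosolic heat shock had medians of 0.33 and -0.18, with 14 intervals inside 2-fold. In both lists the share inside 2-fold was under the 88.8% of all genes. Those of the NRF2 antioxidant response, 18 tested, had medians of 0.10 and 0.13, with 16 intervals inside 2-fold.

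Proteasome subunits differed little between the groups, with 26 of 26 intervals inside 2-fold and a median of 0.08. In both SunTag libraries 7 of the 26 lay above WT (12.8% of all genes did) and 0 below (13.3%). Psmb5, a catalytic subunit, was at 119 and 120 FPKM in WT, against 126 and 126 in SunTag. Of 16 housekeeping genes 14 had an interval inside 2-fold, and Actb (beta actin) was at 393 and 390.0 FPKM against 430.3 and 377. Ribosomal protein genes had 34 of 41 intervals inside 2-fold. Their median was 0.52 for SunTag replicate 1 and -0.24 for replicate 2, so that in 41 of 41 the groups overlapped. Rpl13a was at 1792 and 1788 FPKM in WT, against 2907 and 1534 in SunTag.

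Respiratory chain genes lay above WT mainly in SunTag replicate 1, with a median of 0.30, against 0.04 in replicate 2. Of 35 tested nuclear genes, 16 (45.7%, beside 12.8% of all genes) lay above WT in both SunTag libraries and 0 below, with a median of 0.17, 31 intervals inside 2-fold and 0 calls. Sdhb, a subunit of complex II, was at 159 and 159 FPKM in WT, against 182 and 171 in SunTag. Of 11 tested mRNAs of the mitochondrial genome, 9 lay above WT in both SunTag libraries (12.8% of all genes did) and 0 below (13.3%). Their medians were 0.35 for SunTag replicate 1 and 0.11 for replicate 2, with 0 calls. mt-Co1, the core subunit of cytochrome oxidase, was at 7341 and 7283 FPKM against 8613 and 7875. Mitochondrial mRNAs are cut from shared transcripts, so they are not independent of each other.

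Immediate early genes, transcribed within minutes of a stimulus or of handling, lay above WT in both SunTag libraries in 7 of 16 tested (12.8% of all genes did) and below in 0 (13.3%). Their medians were 0.58 for SunTag replicate 1 and 0.24 for replicate 2, with 0 calls. Egr1 was at 1.31 and 1.88 FPKM in WT, against 23.2 and 2.23 in SunTag, so that SunTag replicate 1 alone was high. Nr4a1, a nuclear receptor of this class, was at 0.391 and 1.52 FPKM against 4.09 and 1.80. Btg2, an inhibitor of proliferation, was at 3.35 and 4.18 FPKM against 11.5 and 5.81. Each SunTag value was above each WT value in these 3 genes, and SunTag replicate 1 was the higher.

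Markers of immune cells were high in SunTag replicate 1 and not in replicate 2. Kupffer cell and macrophage markers had medians of 0.67 and -0.01 for the 2 SunTag libraries, neutrophil markers 0.89 and -0.23, and lymphocyte markers 0.59 and -0.14. Cell cycle genes had medians of 0.66 and 0.02. Of 21 tested, 8 lay above WT in both SunTag libraries (12.8% of all genes did) and 1 below (13.3%), with 0 calls (0.0362% either way). The summed FPKM of the neutrophil list was 18.9 and 12.0 in WT and 49.0 and 9.0025 in SunTag. S100a8, a calcium-binding protein of neutrophils, was at 7.80 and 4.88 FPKM in WT, against 21.9 and 2.31 in SunTag. Sinusoidal endothelial markers had a median of -0.02 with 17 of 20 intervals inside 2-fold, and Stab1, a scavenger receptor of these cells, was at 49.3 and 39.9 FPKM against 50.4 and 46.9. Of 15 pancreatic acinar markers 3 passed the filter, with 0 calls and overlapping groups. Cela1, an elastase, was at 27.1 and 18.1 FPKM in WT, against 12.49 and 20.1 in SunTag, and Cela2a and Amy2b lay between 1.13 and 1.93 FPKM in all 4 libraries. The defining enzymes Prss1, Cpa1, Cpb1, Cel and Clps were listed at 0 in all 4. The part of these cell types in the other results was not tested.

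Genes at loci often used for knock-ins were read because the labels do not name the insertion site. Gt(ROSA)26Sor, the noncoding RNA of the Rosa26 locus, was at 8.04 and 5.80 FPKM in WT, against 8.42 and 7.95 in SunTag (log2 difference 0.23, 95% interval -0.37 to 0.83). Its neighbours Setd5 and Thumpd3 were at 5.64 and 4.67 against 3.80 and 5.05 FPKM and at 8.99 and 7.64 against 7.52 and 7.13 FPKM. Of 8 tested genes of the list, 7 had an interval inside 2-fold, the exception being Col1a1, and 0 passed the test.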

How the data were processed

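Per the labels, total liver RNA had been purified on Direct-zol columns before Illumina sequencing. The submitters' processing notes name the build mm9 and, as tools, Cufflinks 2.2.1, TopHat2 2.1.1 and cutadapt 1.11. They give no strand, annotation or read length. Per the file headers, the authors deposited Cufflinks gene tables in FPKM, and these were used without further scaling. Short rows were left out because they took 49.7% to 57.9% of the FPKM sum of the 4 libraries. In 14.4% to 15.2% of rows above 0 the value lay outside its own deposited bounds, so these were not used.

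log2(FPKM + 1) was tested with limma 3.58.1 (R 4.3.3; empirical Bayes with a trend, two-sided, Benjamini-Hochberg) over 6 libraries, with 3 residual and 4.14 prior degrees of freedom; 2 genes with a missing Myod1_control value were fitted without it. Such differences understate the change of low genes. Code was tested on simulated data. Lists (42, of 883 genes, 869 with a row) and members were chosen with earlier results of these data known. Genes were named by rule: the largest called differences, filled to 10 a direction by the smallest p-values of non-overlapping genes, members of each list with the highest level or smallest p, the most abundant genes, and 7 fixed ones; other genes with values were chosen after these were seen. Promoters came from RefSeq. The Myod1_active library was not analysed here, and 15 alternatives were run.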

Additional observations from a re-analysis of the deposited data

How the results depend on the processing

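All 5 lower genes were called again in 12 of the 15 alternatives, median-ratio scaling and quantile normalization among them. With a pseudocount of 0.1, 3 genes were lower, Myl2, Mb and Tnnt2, since Myl3 (limma adjusted p = 0.0681) and Myh6 (0.169) did not pass. With 1 library left out, the number of lower genes ranged from 0 (without WT replicate 1) to 6 and that of higher genes from 0 to 4, and the arm with 1 library was assumed to vary like the other groups. Without WT replicate 2 the number was 2, Myl2 and a predicted gene. With no filter on low values 1 gene was higher, and with rows spanning less than 300 bp kept 10 were higher and 16 lower, 21 of these 26 being such short rows. No direction of a called gene turned in any alternative.

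Counts of genes whose groups did not overlap moved more. With no filter they were 3206 above and 2906 below WT. With 1 library left out they ranged from 3192 to 5846 above and from 3312 to 5070.0 below, as fewer libraries have to be separated. With a gap of at least 2-fold the count above WT was 16 with a pseudocount of 0.1, 5 with one of 0.5, 41 with short rows kept and 13 to 143 with 1 library left out. The count below WT was 29 with a pseudocount of 0.1, 62 with short rows kept and 28 to 53 with 1 library left out. The highest of these, 143 and 53, were without SunTag replicate 2, where the library that stands apart is the only one of its group. The share of genes with an interval inside 1.5-fold was 26.3% with a pseudocount of 0.1 and 6.33% to 38.2% with 1 library left out. Replicate numbers were not taken as pairs: the deviations of same-numbered libraries correlated at 0.0978 across genes. With the replicate block 0 genes were higher and 5 lower, the same 5, and the share with an interval inside 2-fold was 90.8%. That share was 88.8% in the main fit, 73.8% with a pseudocount of 0.1 and 82.5% with one of 0.5. It was also under that of the main fit whenever 1 library was left out. Read depth was not given, so how far it limits low genes is unknown.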

Other observations

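Some sex-dependent liver genes differed between libraries of the same group more than between the groups, and replicate 1 was the higher one in both. They were looked up after these values had been seen. Cyp2c69, a steroid-metabolising enzyme that is higher in female liver, was at 740.1 and 240.2 FPKM in WT, against 815 and 217 in SunTag. A1bg was at 140.2 and 37.3 FPKM in WT, against 493 and 5.08 in SunTag. Slco1a1, an organic anion transporter that is higher in males, was at 43.3 and 11.7 FPKM against 51.2 and 12.3, and Socs2, a feedback inhibitor of growth hormone signalling, at 8.80 and 4.48 against 8.14 and 3.66. In these 4 genes the groups overlapped. Serpina1e, a protease inhibitor of the male pattern, was at 2264 and 1242 FPKM in WT, against 7001 and 1163 in SunTag, so that 1 library held most of the difference. Over 23 tested female-biased genes the medians were -0.51 for SunTag replicate 1 and -0.19 for replicate 2, and 16 lay below 0. In both SunTag libraries 1 of these lay above WT and 2 below (12.8% and 13.3% of all genes did). Over 17 tested male-biased genes the medians were 0.25 and 0.02, and both lists held 0 calls.

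Some clock genes were uneven between libraries of the same group too, and Arntl was not. Nr1d1, a repressor of the clock, was at 12.9 and 2.88 FPKM in WT, against 1.02 and 4.005 in SunTag, and Per1 at 5.30 and 9.44 against 9.73 and 3.06. Arntl, which drives the clock, was at 8.24 and 8.24 FPKM in WT, against 8.85 and 8.87 in SunTag. The labels used here give no time of day for the livers.

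The MHC class II genes, which antigen-presenting cells express, were high in 1 library. H2-Aa was at 22.7 and 27.5 FPKM in WT, against 78.0 and 22.1 in SunTag, H2-Ab1 at 25.7 and 44.1 against 102 and 29.2, and Cd74 at 65.3 and 89.99 against 214 and 65.9.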
